A study of Mus musculus with 6 samples.

Results

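The synaptic vesicle and exocytosis machinery was examined in mouse neocortical cells that received extra Insm1. Members were taken by gene symbol: synapsins, synaptophysins, SV2 proteins, synaptogyrins, Rab3 proteins, rabphilin, synaptotagmins, Doc2 proteins, syntaxins, SNAP-25 and SNAP-23, vesicle-associated membrane proteins, syntaxin-binding proteins, complexins, NSF and beta-SNAP, and the RIM, Unc13, bassoon and piccolo proteins of the active zone. There are 82 such genes among the 22001 in the count table, and 71 had enough counts to be tested. The strain is not given in the labels. Both groups were neocortical cells of mouse embryos dissected at E14.5, 24 h after plasmid was driven into the cells lining the ventricle at E13.5, and both were sorted for the red fluorescent protein mCherry. Controls carried a plasmid for mCherry alone and the other embryos a plasmid for Insm1, a zinc-finger transcription factor, and mCherry, and each group holds 3 libraries. The labels name neither the promoter of the plasmid nor how many embryos went into a library, so a p-value speaks only of how these 6 libraries spread, and that spread may be technical.

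Neurons release transmitter when a vesicle protein of the VAMP type zips together with syntaxin and SNAP-25 on the plasma membrane. Munc18 proteins, complexins and Unc13 proteins prepare this SNARE complex, and synaptotagmins trigger fusion when calcium enters. RIM, bassoon and piccolo hold vesicles at the active zone. In the embryonic cortex most newborn neurons have not yet formed synapses, and many of these proteins also serve membrane traffic in growing axons and in cells that are not neurons.

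After Insm1, 3 members rose and 2 fell, and 66 of the 71 did not pass the test. The 3 that rose were Syn2 (synapsin II, which ties vesicles to one another and to the cytoskeleton), Rab3a (the main vesicle GTPase of neurons) and Pclo (piccolo, a giant active zone scaffold). The 2 that fell were Snap23, the widely expressed relative of the neuronal SNARE Snap25, and Sv2b, a vesicle glycoprotein with the fold of a transporter. The 5 called members are 7.04% of those tested, beside 3.35% of all 13560 genes tested (1.23% higher and 2.12% lower), where called means an adjusted p below 0.05 in edgeR's quasi-likelihood test. For 20 members, or 28.2%, the groups shared no range of values, 12 of them higher and 8 lower, beside 22.2% of all genes (10.4% higher and 11.8% lower). An unadjusted p below 0.05 was reached by 21 members, or 29.6%, beside 17.2% of all genes. The median log2 fold change was 0.02 over the tested members and -0.01 over all tested genes, with 38 members above 0 and 33 below.

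Stretches of up to 250 bases before the most upstream RefSeq start of each called member are printed as the start regions of the genes that carry the result, on GRCm38.p6, 5′ to 3′ on the strand of the gene. Syn2 is read from chr6:115134652-115134901 on the plus strand, Rab3a from chr8:70754453-70754678 on the plus strand, Pclo from chr5:14514668-14514917 on the plus strand, Snap23 from chr2:120567421-120567670 on the plus strand, and Sv2b from chr7:75309263-75309512 on the minus strand. The Rab3a stretch is 226 bases because the rest lies in an annotated exon. Capitals mark matches, on either strand, to a GC box (GGGCGG), the half-site of the cyclic AMP response element (TGACG), a proneural E-box (CAGATG) or a TATA box (TATAAA).
Syn2: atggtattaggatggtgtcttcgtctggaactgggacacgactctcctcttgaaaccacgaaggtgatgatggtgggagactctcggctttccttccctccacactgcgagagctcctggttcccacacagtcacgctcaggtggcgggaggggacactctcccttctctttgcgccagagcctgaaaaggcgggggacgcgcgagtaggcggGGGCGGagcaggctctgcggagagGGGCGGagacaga
Rab3a: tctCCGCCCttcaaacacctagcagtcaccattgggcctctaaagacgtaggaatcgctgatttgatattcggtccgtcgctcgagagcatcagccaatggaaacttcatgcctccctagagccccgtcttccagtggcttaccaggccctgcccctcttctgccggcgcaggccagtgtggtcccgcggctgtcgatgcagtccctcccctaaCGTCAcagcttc
Pclo: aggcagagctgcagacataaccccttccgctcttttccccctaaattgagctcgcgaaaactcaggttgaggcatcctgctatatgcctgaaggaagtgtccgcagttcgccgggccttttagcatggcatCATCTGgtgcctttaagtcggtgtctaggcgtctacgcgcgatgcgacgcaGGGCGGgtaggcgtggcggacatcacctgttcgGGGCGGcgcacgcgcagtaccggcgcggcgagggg
Snap23: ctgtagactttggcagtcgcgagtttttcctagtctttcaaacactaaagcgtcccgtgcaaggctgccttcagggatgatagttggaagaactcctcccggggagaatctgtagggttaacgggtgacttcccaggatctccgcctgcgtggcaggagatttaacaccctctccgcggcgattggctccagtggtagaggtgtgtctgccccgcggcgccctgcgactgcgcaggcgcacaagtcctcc
Sv2b: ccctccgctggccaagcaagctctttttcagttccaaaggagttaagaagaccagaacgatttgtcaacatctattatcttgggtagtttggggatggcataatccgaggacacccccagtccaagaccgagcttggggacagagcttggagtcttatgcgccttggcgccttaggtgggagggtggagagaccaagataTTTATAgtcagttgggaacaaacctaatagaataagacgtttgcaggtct
Each of the 3 genes that rose holds a GC box here and neither of the 2 that fell does. But a GC box is in 41 of the 61 member promoters matched in RefSeq (67.2%), most of them of members that were not called. Sv2b alone among the 5 holds a match to the TATA box, and only on the strand opposite to the gene (TTTATA). The Snap23 stretch holds none of these letters. A GC box is present in 32.96% of the first 250 bases of 27025 RefSeq promoters, a TATA box in 12.98%, the proneural E-box in 14.54% and the cyclic AMP half-site in 17.8%. The core AGGGGGC of the Insm1 motif and the half-site TTCAGCACC of the neuronal repressor REST, searched on both strands, are in 9.31% and 0.292% of all these promoters and in none of the 5 stretches. No searched motif contains another. A match to the TATA box on either strand is in 3 of the 61 member promoters (4.92%). The proneural E-box is in 9.84% of them, the cyclic AMP half-site in 21.3%, the Insm1 core in 8.2% and the REST half-site in 1.64%. The median G and C content was 61.2% in the member promoters and 52.0% in all 27025. Its part in the GC box share was not tested. The 61 are 74.4% of the 82 members, and the promoters of the others were not searched. These matches describe letters in short windows and no binding was measured.

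Before the members, the libraries themselves. Totals lay between 30017645 and 31645135 counts. Insm1 was at 222, 331 and 371 CPM (counts scaled to library size by TMM) in controls 1, 2 and 3 and between 1436 and 2173 CPM in the Insm1 libraries. The cells carried the markers of their label: 5 markers of projection neurons summed to between 4810 and 4841 CPM in the controls and between 5839 and 6256 CPM in the Insm1 libraries, with 3 of the 5 called higher, and 5 markers of dorsal progenitors to between 1093 and 1136 CPM and between 928 and 1232 CPM, with 1 of the 5 called higher. Cajal-Retzius markers, 6 genes of early neurons at the brain surface, summed to 133 and 127 CPM in controls 1 and 3 but to 32.0 CPM in control 2 and between 33.0 and 48.1 CPM with Insm1. Blood genes, 6 in number, summed to 715 and 307 CPM in controls 1 and 3, to 5258 CPM in control 2 and between 3497 and 4891 CPM with Insm1. Microglial markers were at most 39.9 CPM in sum, in control 2, endothelial and pericyte markers at most 2.30 CPM and oligodendrocyte lineage markers at most 1.71 CPM, with Sox10 at no more than 3 counts in any library. Interneuron markers, 7 genes, summed to 12.0, 9.22 and 17.0 CPM in controls 1, 2 and 3 and to 9.15, 7.46 and 6.33 CPM with Insm1, lower in every Insm1 library than in every control, with none of the 7 called. On the Cajal-Retzius and blood lists control 2 therefore stood with the Insm1 libraries. In bulk RNA, fewer cells of a type and less RNA per cell cannot be told apart. The part of these marker levels in the results on Syn2, Rab3a, Pclo, Slc17a7, Snap23, Sv2b, Syt1, Dnm3 and Sh3gl2 was not tested.

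**Figure D1:**
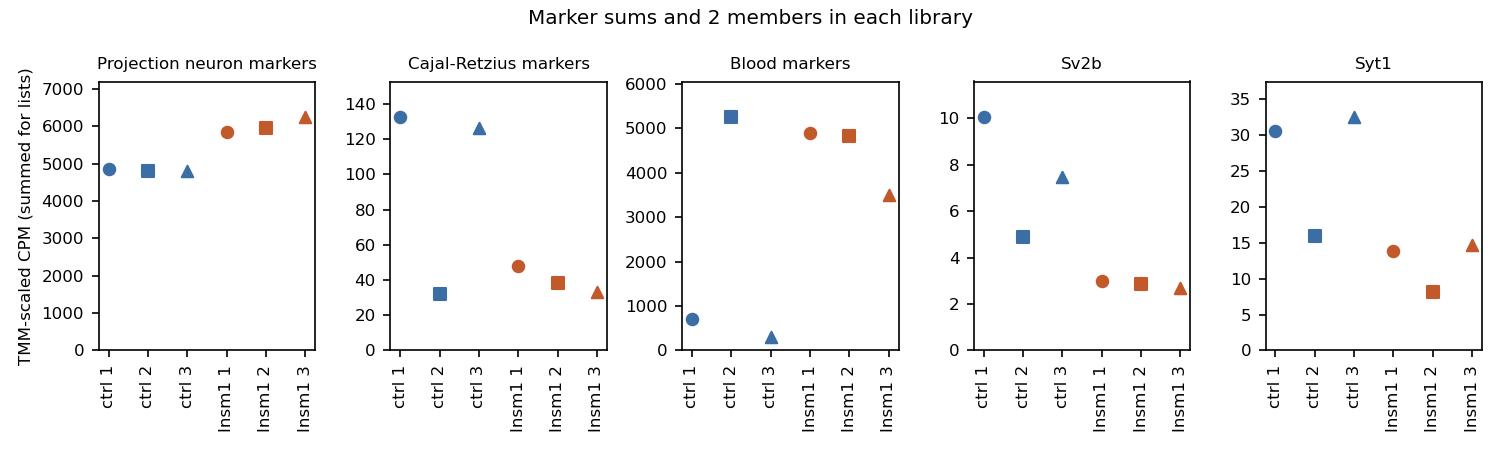
TMM-scaled CPM in each of the 6 libraries (x axis) for the summed markers of projection neurons, Cajal-Retzius cells and blood and for the members Sv2b and Syt1. Controls are blue and Insm1 libraries orange, and control 2 stands near the Insm1 libraries for Cajal-Retzius and blood markers but at 4.87 CPM between the groups for Sv2b.

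The vesicle proteins held 3 of the 5 calls. Of these 17 genes, 16 were tested, of which 2 rose, 1 fell and 13 did not pass, with a median log2 fold change of -0.12. An unadjusted p below 0.05 in edgeR was reached by 8 of the 16, and 9 did not overlap between the groups. Among all genes these shares were 17.2% and 22.2%, and 3.35% were called. Syn2 was at 77.6, 74.7 and 64.1 CPM in controls 1, 2 and 3 and at 116, 134 and 116 CPM in Insm1 libraries 1, 2 and 3. Every Insm1 library lay above every control. This is a rise of 1.70-fold, from 72.1 ± 7.09 to 122 ± 10.2 CPM (SD, n = 3), a log2 fold change of 0.76 (standard error 0.09, edgeR adjusted p = 0.00536). The other synapsins, Syn1 and Syn3, were not called, though Syn3 was lower in every Insm1 library than in every control. Syn1 was at 30.5 ± 3.19 and 30.4 ± 3.01 CPM (SD, n = 3), with a log2 fold change of -0.00 and a standard error of 0.12, and Syn3 at 4.66 ± 0.593 and 3.24 ± 0.637 CPM (SD, n = 3; edgeR adjusted p = 0.355). Syn2 thus took 51.6 ± 2.24% of synapsin transcripts by exon length in the controls and 64.7 ± 3.23% with Insm1 (SD, n = 3). An exact two-sided permutation test of that share gave p = 0.1 by exon length and on the deposited TPM, the smallest that 3 libraries against 3 allow. Shares were tested only for called members and in the same 6 libraries, so they lend a call no separate support. Syn2 (ENSMUSG00000009394) is a protein-coding gene on chromosome 6, from 115134902 to 115282006 on the plus strand in GENCODE M21. Its exons share 90 bases with Timp4 on the other strand, and Timp4 was at no more than 1.49 CPM in any library. Syn3 shares 1733 exon bases with Timp3 in the same way. Its low counts are uncertain, since the strand setting of the counting is not given.

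Rab3a was the most abundant vesicle protein gene in the list, at 214 TPM by exon length in the controls and 294 TPM with Insm1. Its counts were 131, 133 and 128 CPM in controls 1, 2 and 3 and 173, 201 and 184 CPM in Insm1 libraries 1, 2 and 3. The controls lay within a narrow band and all Insm1 libraries were above it. Rab3a rose 1.42-fold, from 131 ± 2.39 to 186 ± 14.3 CPM (SD, n = 3), a log2 fold change of 0.51 (standard error 0.07, edgeR adjusted p = 0.00658). Its relatives Rab3d, a form best known from secretory granules, and Rab3c were 1.275-fold and 1.16-fold the control level without passing the test (edgeR adjusted p = 0.139 and 0.209), and DESeq2 called Rab3d, and the libraries of both genes too did not overlap. Rab3b, at 4.35 ± 0.741 and 4.67 ± 2.01 CPM (SD, n = 3), overlapped between the groups. The share of Rab3a in the Rab3 family by exon length was 73.4 ± 2.57% and 76.0 ± 0.783% (SD, n = 3). The exact two-sided permutation p of this share was 0.2 by exon length and 0.4 on the deposited TPM, where 3 libraries against 3 allow no p below 0.1. Rab3a (ENSMUSG00000031840) lies on chromosome 8, from 70754679 to 70758677 on the plus strand. It shares 29 of its 2226 exon bases with Mpv17l2 on the other strand. Mpv17l2 rose 1.44-fold, from 30.8 ± 2.12 to 44.4 ± 2.07 CPM (SD, n = 3; edgeR adjusted p = 0.0198). The 2 rises may not be independent where reads fall in the shared stretch, as the strand setting of the counting is not given.

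Sv2b was a scarce transcript, at 10.1, 4.87 and 7.47 CPM in controls 1, 2 and 3 and at 3.01, 2.85 and 2.68 CPM in Insm1 libraries 1, 2 and 3. The groups did not overlap, but control 2 was the nearest to the Insm1 libraries. The mean went from 7.47 ± 2.60 to 2.85 ± 0.162 CPM (SD, n = 3), lower by 2.62-fold, a log2 fold change of -1.39 (standard error 0.29, edgeR adjusted p = 0.0296). Sv2a, the common form of the protein in brain, was at 48.3 ± 11.2 and 42.0 ± 4.31 CPM (SD, n = 3; edgeR adjusted p = 0.590). Sv2c was at 1.54 ± 0.316 and 1.22 ± 0.494 CPM (SD, n = 3). By exon length Sv2b made up 7.63 ± 1.04% of SV2 transcripts in the controls and 3.60 ± 0.507% with Insm1 (SD, n = 3). The exact permutation p of this share was 0.1 by exon length and on the deposited TPM, the smallest that 3 libraries against 3 allow. Sv2b (ENSMUSG00000053025) lies on chromosome 7, from 75114894 to 75309262 on the minus strand, and its exons overlap no other gene of the table. The Cajal-Retzius markers, at 133, 32.0 and 127 CPM in sum in controls 1, 2 and 3, were likewise lowest in control 2 among the controls. So were 33 of the 71 tested members (46.5%), whether they rose or fell, while controls 1 and 3 were each lowest for 19. The share over all tested genes was not counted, so these counts cannot show a trait of the members. A link to the Cajal-Retzius markers was not tested.

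Among the remaining vesicle genes Syp, the classic vesicle marker synaptophysin, was at 56.2 ± 3.94 and 68.1 ± 6.92 CPM (SD, n = 3; edgeR adjusted p = 0.179), without overlap. Its broadly expressed relative Sypl was at 50.2, 53.3 and 53.4 CPM in the controls and at 37.6, 44.9 and 33.1 CPM with Insm1. All 3 Insm1 libraries were below the controls, yet the adjusted p was 0.0786 in edgeR (log2 fold change -0.44, standard error 0.12), and DESeq2 called Sypl lower (adjusted p = 0.0124). Rph3a, the rabphilin that binds Rab3 proteins, was at 6.73, 1.07 and 3.36 CPM in the controls and at 0.420, 1.46 and 0.937 CPM with Insm1. Control 2 lay inside the Insm1 range for Rph3a, and edgeR gave an adjusted p of 0.147. Synaptogyrins Syngr1 and Syngr3, tetraspan vesicle proteins, were at 14.0 ± 1.72 and 24.03 ± 1.89 CPM in the controls and at 12.9 ± 0.998 and 22.0 ± 1.47 CPM with Insm1 (SD, n = 3).

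**Figure D2:**
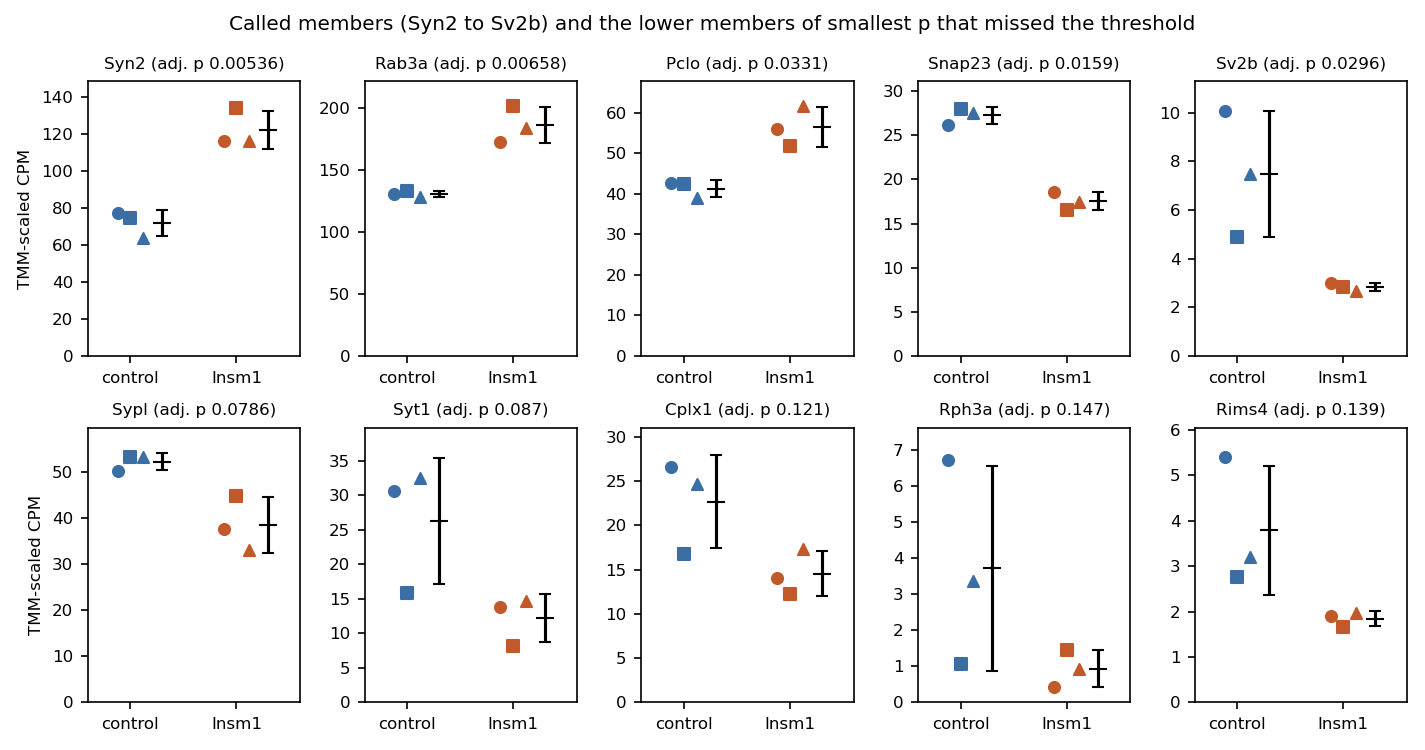
TMM-scaled CPM (y axis, from 0) of 10 members in each control library (blue) and Insm1 library (orange), with circles, squares and triangles for libraries 1, 2 and 3 and the mean ± SD (n = 3) beside them. Syn2, Rab3a and Pclo lie higher with Insm1 in every library and Snap23 and Sv2b lower, and control 2 is the lowest control for Sv2b, Syt1, Cplx1, Rph3a and Rims4.

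None of the calcium sensors was called: 16 of 20 were tested, 8 with a positive and 8 with a negative log2 fold change, and DESeq2 called 1 of them, Syt1. At an unadjusted p below 0.05 in edgeR there were 2 of the 16, Syt1 and Syt7, beside 17.2% of all genes. Syt11, a synaptotagmin that does not bind calcium, was the most abundant member of the whole list, at 395 TPM by exon length in the controls and 394 TPM with Insm1. Its counts were 563 ± 29.7 and 583 ± 33.0 CPM (SD, n = 3; edgeR adjusted p = 0.785). Syt4, another form of neurons and secretory cells, was at 113 ± 9.25 and 96.6 ± 14.1 CPM (SD, n = 3; edgeR adjusted p = 0.324). Syt1, the sensor of fast release at mature synapses, was far lower, at 11.6 and 5.16 TPM by exon length. Its counts were 30.6, 15.9 and 32.5 CPM in controls 1, 2 and 3 and 13.8, 8.17 and 14.7 CPM with Insm1. All Insm1 libraries were below all controls, with control 2 close to them. For Syt1 the log2 fold change was -1.11 (standard error 0.30), and the edgeR adjusted p of 0.0870 misses the threshold. Without control 2 the adjusted p was 0.0101, and DESeq2 gave 0.00144. Syt7, a slow sensor with high affinity for calcium, was 1.30-fold higher with libraries that did not overlap (edgeR adjusted p = 0.236), and Syt5 was at 16.2 ± 2.61 and 19.5 ± 2.88 CPM (SD, n = 3). Syt8 and Syt10 had no counts in any library, and the upper limit that 0 counts allow, 3 counts in a library, is between 0.0948 and 0.0999 CPM by counting error alone.

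The SNAREs of transmitter release did not pass the test in either direction. All 5 in this group were tested and none was called, in edgeR or by DESeq2. There was 1 at an unadjusted p below 0.05 in edgeR, beside 17.2% of all genes. Vamp2, the vesicle SNARE, was at 104 ± 4.06 and 113 ± 5.72 CPM (SD, n = 3; log2 fold change 0.12, standard error 0.07). Snap25 was at 55.1 ± 9.06 and 51.6 ± 7.16 CPM (SD, n = 3; edgeR adjusted p = 0.814). Stx1a, a syntaxin of the plasma membrane at synapses, was at 9.78, 8.57 and 10.1 CPM in the controls and at 13.54, 11.5 and 12.0 CPM with Insm1, without overlap (edgeR adjusted p = 0.260). By exon length Vamp2 stood at 102 TPM over the 6 libraries, Snap25 at 28.2 TPM and Stx1a at 14.6 TPM. Vamp1, the form of spinal cord and brainstem, was at 0.662 TPM.

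Among SNAREs of other membranes Snap23 fell and the other 15 tested did not pass. An unadjusted p below 0.05 in edgeR was reached by 3 of the 16, beside 17.2% of all genes. Snap23, which serves fusion at the plasma membrane outside synapses, was at 26.2, 28.04 and 27.5 CPM in controls 1, 2 and 3 and at 18.6, 16.5 and 17.5 CPM in Insm1 libraries 1, 2 and 3. Both groups were tight and did not overlap, and control 2 was the highest of the controls. The mean went from 27.3 ± 0.957 to 17.5 ± 1.03 CPM (SD, n = 3), lower by 1.56-fold, a log2 fold change of -0.64 (standard error 0.11, edgeR adjusted p = 0.0159). Against Snap25, Snap23 made up 44.2 ± 4.64% of the pair by exon length in the controls and 35.2 ± 4.21% with Insm1 (SD, n = 3). The exact permutation p of this share was 0.1 by exon length and on the deposited TPM, the smallest that 3 libraries against 3 allow. Snap23 (ENSMUSG00000027287) lies on chromosome 2, from 120567671 to 120601255 on the plus strand, and overlaps no exon of another gene. The endosomal syntaxins Stx12 and Stx7 were the most abundant here, at 168 and 94.5 TPM by exon length over the 6 libraries, with 147 ± 9.25 and 152 ± 9.76 CPM for Stx12 and 114 ± 16.3 and 122 ± 7.90 CPM for Stx7 in the controls and with Insm1 (SD, n = 3). Vamp3, cellubrevin of recycling endosomes, was at 65.8 ± 6.87 and 57.1 ± 5.69 CPM (SD, n = 3; edgeR adjusted p = 0.383), and Stx5a, the syntaxin of the Golgi, at 63.0 ± 3.57 and 63.7 ± 6.61 CPM (SD, n = 3).

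**Figure D3:**
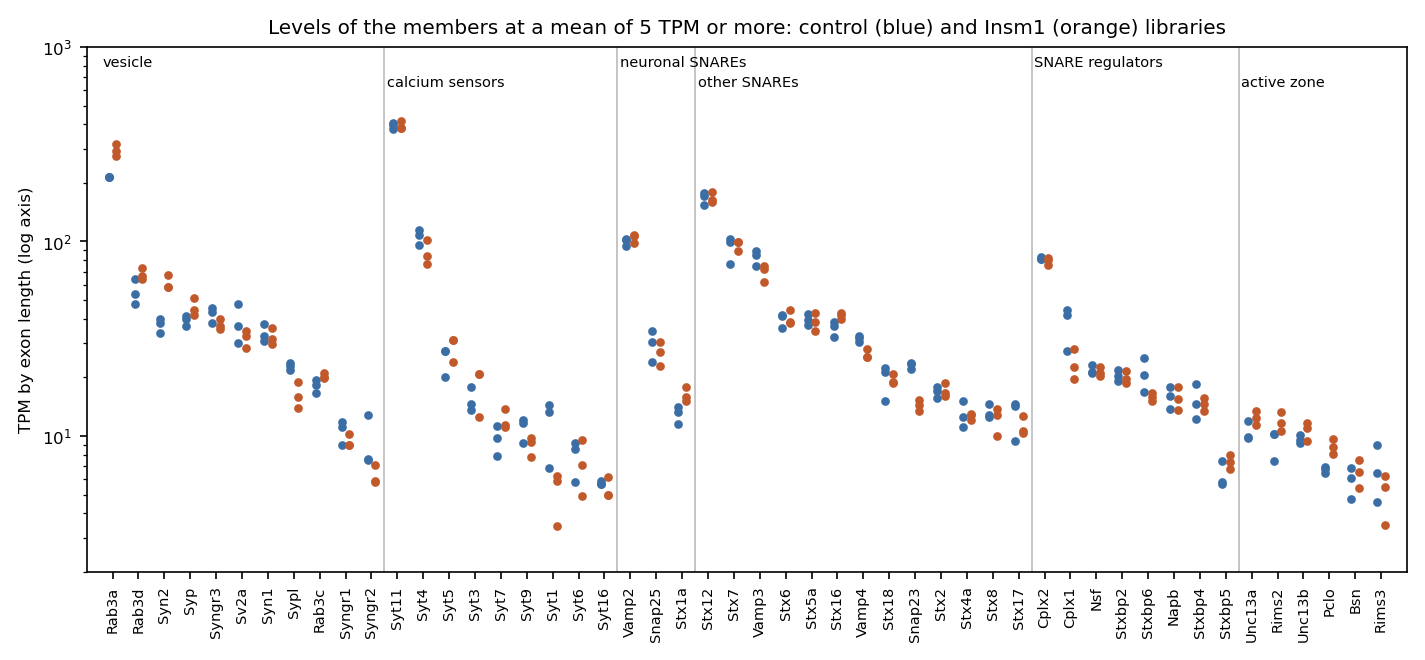
TPM by exon length (y axis, log) of the members with a mean of at least 5 TPM, grouped by role, with 1 point for each control library (blue) and each Insm1 library (orange). Syt11, Rab3a and Stx12 stand highest, at 394, 254 and 168 TPM over the 6 libraries, and Pclo and Bsn lie below 10 TPM.

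Proteins that prepare or take apart the SNARE complex gave no call among 9 tested. There were 3 at an unadjusted p below 0.05 in edgeR, beside 17.2% of all genes, and DESeq2 called 1, Cplx1. The complexins Cplx1 and Cplx2, which clamp and promote fusion, were not tested against each other. Cplx2 was at 111 ± 0.774 and 111 ± 4.69 CPM (SD, n = 3), with a standard error of 0.07 around a log2 fold change of 0.01. Cplx1 was at 26.6, 16.7 and 24.7 CPM in controls 1, 2 and 3 and at 14.1, 12.3 and 17.4 CPM with Insm1, so that control 2 lay below the third Insm1 library. For Cplx1 the log2 fold change was -0.64 (standard error 0.20, edgeR adjusted p = 0.121), and without control 2 it was -0.81 (adjusted p = 0.0272). Nsf, the ATPase that takes spent SNARE complexes apart, was at 49.9 ± 3.28 and 50.5 ± 2.53 CPM (SD, n = 3), and Stxbp2, the Munc18 form of epithelia and blood cells, at 23.3 ± 1.502 and 23.6 ± 1.70 CPM (SD, n = 3).

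On the scale of TPM by exon length, which divides by up to 22746 bases (Unc13b), active zone genes were low. The 9 tested ranged from 0.466 to 11.4 TPM over the 6 libraries. Of these 1 rose, none fell and 8 did not pass, with a median log2 fold change of 0.20. An unadjusted p below 0.05 in edgeR was reached by 4 of the 9, and 4 did not overlap between the groups. Among all genes these shares were 17.2% and 22.2%. Pclo was at 42.6, 42.4 and 39.0 CPM in controls 1, 2 and 3 and at 56.1, 51.9 and 61.6 CPM in Insm1 libraries 1, 2 and 3, without overlap. This is 1.37-fold higher, from 41.3 ± 2.01 to 56.5 ± 4.86 CPM (SD, n = 3), a log2 fold change of 0.45 (standard error 0.10, edgeR adjusted p = 0.0331). Pclo (ENSMUSG00000061601) lies on chromosome 5, from 14514918 to 14863459 on the plus strand, and overlaps no exon of another gene. Bsn, the related scaffold bassoon, was at 25.6 ± 4.48 and 29.4 ± 4.59 CPM (SD, n = 3; edgeR adjusted p = 0.617), and the exact permutation p for the share of Pclo in the pair was 0.3 on the deposited TPM. Unc13a and Unc13b, priming proteins of the Munc13 type, were at 36.3 ± 3.54 and 60.1 ± 2.66 CPM in the controls and at 44.5 ± 3.81 and 69.3 ± 7.35 CPM with Insm1 (SD, n = 3). Unc13a did not overlap between the groups (edgeR adjusted p = 0.195) and shares 495 exon bases with Colgalt1 on the other strand. Rims2, a scaffold that links Rab3 to Unc13 proteins, was 1.31-fold higher without overlap (edgeR adjusted p = 0.216). Rims4, a short form, went the other way at 5.41, 2.76 and 3.20 CPM in the controls and 1.91, 1.65 and 1.97 CPM with Insm1 (edgeR adjusted p = 0.139), and Rims3 was at 14.51 ± 4.54 and 11.4 ± 3.14 CPM (SD, n = 3).

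The calls differed in how often they held with 1 library left out. Such fits hold fewer libraries, and their calls over all genes ranged from 37 to 224 higher and from 64 to 407 lower, beside 167 and 287 with all 6. A lost call therefore does not by itself show that a result rests on the library left out. Syn2 and Rab3a were called with each of the 6 libraries left out in turn, with log2 fold changes from 0.69 to 0.83 and from 0.45 to 0.56. Snap23 was called in 2 of these 6 fits, with log2 fold changes from -0.68 to -0.59 and adjusted p from 0.0303 to 0.0819, and lost the call without control 1, control 3, Insm1 library 2 or Insm1 library 3. Pclo and Sv2b were called in 1 of the 6 fits each, the one without control 2, with adjusted p up to 0.155 for Pclo and 0.122 for Sv2b. Their log2 fold changes ranged from 0.39 to 0.51 and from -1.62 to -1.11. Without control 2, 8 of 72 tested members were called (11.1%, beside 4.58% of all genes), and those that joined were Syt1, Cplx1 and Rph3a, all lower. DESeq2 called 10 of 71 members (14.1%, beside 7.6% of all genes), 4 higher and 6 lower.

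**Figure D4:**
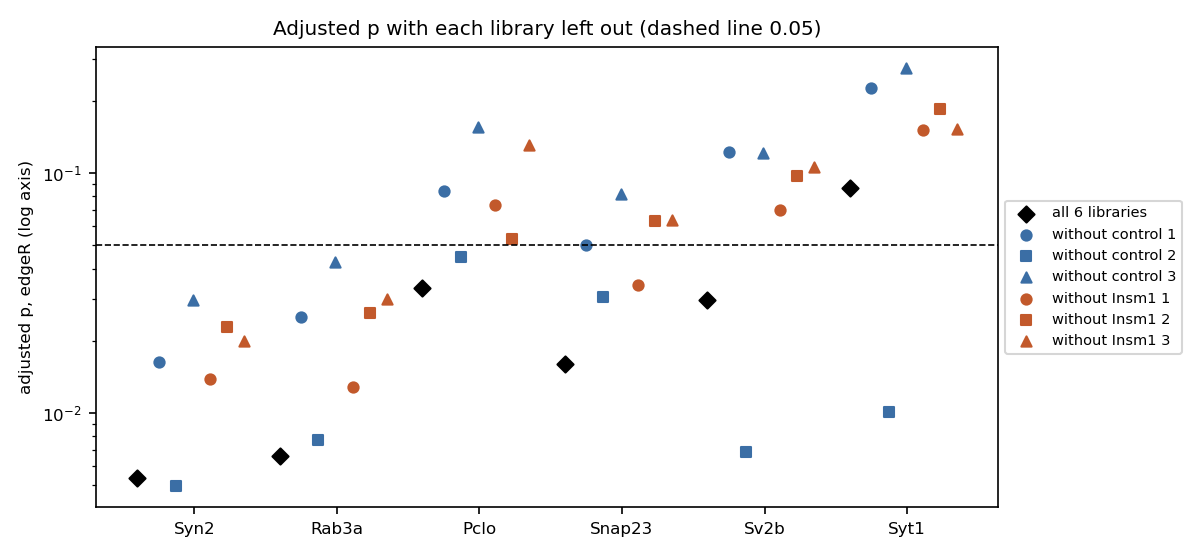
Adjusted p of edgeR's test (y axis, log) for 6 members with all libraries (black diamond) and with each control (blue) or Insm1 library (orange) left out, with circles, squares and triangles for libraries 1, 2 and 3 and a dashed line at 0.05. Syn2 and Rab3a stay below the line in every fit, and Sv2b and Syt1 have their lowest values without control 2, at 0.00684 and 0.0101.

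Other genes of the vesicle cycle were read from lists of 109 genes outside the members, of which 94 were tested, 1 rose and 2 fell. These 3 are 3.19% of those tested, close to the 3.35% of all genes. In the list for loading vesicles with transmitter 1 of 19 tested rose, the glutamate transporter gene Slc17a7 (VGLUT1), which was at 71.2, 53.4 and 62.8 CPM in the controls and at 90.4, 109 and 82.7 CPM with Insm1. Its groups did not overlap, a 1.51-fold rise with an edgeR adjusted p of 0.0362. In the endocytosis list 2 of 28 fell. Dnm3, a dynamin that cuts vesicles from the membrane, was at 8.97, 4.87 and 8.52 CPM in controls 1, 2 and 3 and at 2.78, 2.88 and 3.59 CPM with Insm1, which is 2.41-fold lower (edgeR adjusted p = 0.0388). Sh3gl2, endophilin A1, which bends the membrane before the cut, was at 56.6, 27.0 and 50.8 CPM in the controls and at 21.7, 17.2 and 22.1 CPM with Insm1, which is 2.20-fold lower (edgeR adjusted p = 0.0430). Control 2 was the lowest control for Dnm3, Sh3gl2 and Slc17a7, as it was for Sv2b and Syt1. It was the lowest control for 33 of the 71 tested members (46.5%), and the share over all tested genes was not counted. In the docking and priming list none of 47 tested was called, with 11 (23.4%) at an unadjusted p below 0.05, beside 17.2% of all genes. Among its abundant genes Lin7c, an adaptor, was at 406 ± 27.5 CPM in the controls and 429 ± 39.3 CPM with Insm1 (SD, n = 3; edgeR adjusted p = 0.694).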

How the data were processed

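RNA was measured in 6 libraries of sorted mCherry-positive cells, 3 per group, each counted as 1 sample. Per the labels' protocols, cDNA was made with a poly-dT primer and template switching, and per the submitters' processing notes the tools were bcl2fastq, Bowtie and TopHat2 2.0.13, and the build was GRCm38. Counting program and strand setting: not given in the sources used here. Deposited by the authors were whole-number counts per Ensembl gene, and a table of TPM. The deposited TPM divides by the whole gene span with introns: the length it implies matched the GENCODE M21 span within 0.01 (log2) in 95.1% of 10848 genes and exon length in 0.433%. Levels between genes are therefore given as TPM computed here from the counts and GENCODE M21 exon lengths, which replaces the deposited TPM set in the design.

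Genes were filtered by filterByExpr, scaled by TMM (factors 0.9753 to 1.021) and compared in R 4.3.3 by the robust quasi-likelihood test of edgeR 4.0.16, with group as the only term, two-sided and Benjamini-Hochberg adjustment over 13560 genes. The fit was also run on simulated data, but the outcome is not reported here, so that run lends the calls no support. Alternatives used DESeq2 1.42.0 and limma 3.58.1 (log2(TPM + 1) and log2(TPM + 0.1), genes at 1 TPM in 3 libraries), other scalings and filters, a replicate block and single libraries left out. The members, role groups and lists were chosen with earlier results of these data known. Named are all called members, the 3 of highest TPM in each role, relatives of called members and called genes of the other lists, and some genes that fall under this rule are not reported here. Syp, Sypl, Rph3a, Rims4, Syt1, Syt7, Stx1a, Vamp1, Nsf and Syngr1 were named after their values were seen, as were the untested members. Replicates differed by more than counting noise (chi-square over its degrees of freedom 12.43 to 31.05).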

Additional observations from a re-analysis of the deposited data

How the results depend on the processing

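The labels do not say whether equal numbers pair samples. Same-numbered libraries had correlations of their deviations of 0.0744, 0.0349 and -0.055, and unlike numbers from -0.0969 to 0.0647. With 3 libraries per group these values cannot show whether samples were paired. With the replicate number as a block 115 genes were called higher and 216 lower, with 2 members higher and 2 lower (Rab3a and Syn2, Snap23 and Syt1), and other pathway genes at 0 higher and 2 lower. Over all genes, beside 167 higher and 287 lower, DESeq2 called 428 and 594, limma on log2(TPM + 1) 36 and 116 and on log2(TPM + 0.1) 34 and 114, and single libraries left out gave 37 to 224 and 64 to 407. Members called lower, 2 in edgeR, were 6 by DESeq2, 1 by limma-voom and 1 by limma on either TPM scale, and 0 to 5 with libraries left out. Members called higher, 3 in edgeR, were 4 by DESeq2, 2 on either TPM scale and 2 to 3 with libraries left out. Other pathway genes called higher, 1 in edgeR, were 2 with no filter, 2 with the filter at 5 CPM, 3 by DESeq2, 0 on either TPM scale and 0 to 1 with libraries left out. Those called lower, 2 in edgeR, were 1 with no filter, 5 by DESeq2, 0 by limma-voom, 0 on log2(TPM + 1), 1 on log2(TPM + 0.1) and 0 to 4 with libraries left out. The members' median ranged from -0.0073 to 0.025 with libraries left out and was -0.03 and -0.036 on the TPM scales. Syn2 and Rab3a were called in all 10 other settings and Snap23 in 10, Pclo in 7 of 10 and Sv2b in 5 of the 7 that held it. The cause of these differences was not tested.

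Shares within a family, as points between groups on the deposited TPM, were 13.2 for Syn2, -9.34 for Snap23, 1.46 for Rab3a, -0.605 for Sv2b and 3.69 for Pclo, with ranges of 11.8 to 15.0, -11.9 to -6.67, 0.366 to 2.40, -0.697 to -0.553 and 1.54 to 6.22 when libraries were left out. On counts the share of Rab3a moved by 3.82 and that of Sv2b by -6.58, and by exon length, an alternative added after seeing the data, that of Sv2b by -4.03.

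Uncalled members near 0 changed sign without being called. For Cplx2 the log2 fold change was -0.0047 with upper-quartile scaling, -0.0032 with the 5 CPM filter, -0.058 on both TPM scales and -0.019 to 0.041 with libraries left out. Syn1 was at 0.00095 by RLE, 0.0039 with no filter, 0.0018 by DESeq2 and -0.084 to 0.095 with libraries left out. On log2(TPM + 1) and log2(TPM + 0.1), Stx12 was at -0.015 and -0.016, Stx5a at -0.0503 and -0.0516, Stxbp2 at -0.041 and -0.044 and Syt11 at -0.016 and -0.016. With libraries left out Rab3b ranged from -0.31 to 0.29, Snap25 from -0.21 to 0.021, Stx12 from -0.0035 to 0.10, Stx5a from -0.057 to 0.092, Stx7 from -0.0104 to 0.19, Stxbp2 from -0.035 to 0.084 and Sv2a from -0.34 to 0.0015.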

Other observations

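Of the 82 members 11 had too few counts to be tested, and they are named here only for their counts. Cplx4, Syt8, Syt10 and Vamp7 had 0 counts in every library. The identifier given for Vamp7 is not in GENCODE M21, so its 0 may reflect the annotation used for counting and says nothing certain about the gene. Cplx3 had at most 5 counts in a library, Syngr4 at most 9, Syt17 at most 12, Doc2b and Stx11 at most 14, Vamp5 at most 15 and Unc13c at most 17.

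Because the deposited TPM divides by gene span, the order of levels can differ between scales, also within a family. Bsn averages 2.54 TPM and Pclo 1.22 TPM in the deposited table, but 6.18 and 7.79 TPM by exon length. Syt1 averages 0.331 TPM in the deposited table and 8.36 TPM by exon length, Rims2 0.552 and 10.6 TPM, and Syn2 5.72 and 49.3 TPM, while Vamp2, a short gene, averages 243 and 102 TPM. On the deposited scale Vamp2 stands above Syt11 (164 TPM), and by exon length Syt11 (394 TPM) stands above Vamp2.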
